A study of Mus musculus with 12 samples.

Results

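The subunits of respiratory complex I that are encoded in the nucleus were followed in the colonic epithelium of mice lacking TFEB, a transcription factor of lysosomal genes. Members were the genes whose symbol is *Nduf* followed by a, b, c, s or v and a number. Of the 47632 genes in each of 3 expression tables, 36 met this rule, and they divide into 7 core and 29 accessory subunits. The RNA came from isolated colon epithelial cells of C57/BL6 mice of 2 genotypes. In *Tfeb* ΔIEC animals, Cre recombinase driven by the villin promoter deletes floxed *Tfeb* in the epithelium of the intestine, and *Tfeb* flox/flox animals, which carry the same floxed alleles, were the controls. These groups, KO and WT in the labels, are called ΔIEC and control animals in the following. Each genotype was sampled on Day 0 (untreated), on Day 4 of treatment with dextran sulfate sodium (DSS), a polymer in the drinking water that injures the colon, and on Day 11, after a return to plain water. Each of the 6 groups held 2 animals, 12 in all, and the labels give 10 and 12 weeks of age on Day 0, 12 weeks on Day 4 and 10 weeks on Day 11. The deposited tables hold 1 value per gene, genotype and day, in FPKM (fragments per length of transcript and per size of library), which the authors pooled over both animals. No value given here therefore has an error, no difference between genotypes has a replicate check, and none was tested here. The authors' own tests between genotypes were not used.

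Complex I, or NADH:ubiquinone oxidoreductase, is the entry point of NADH electrons into the mitochondrial respiratory chain. Its L-shaped structure has a matrix arm, in which flavin and iron-sulfur clusters pass electrons from NADH to ubiquinone, and a membrane arm, which pumps protons. The core subunits are shared with bacteria and carry out catalysis, those of the membrane arm being encoded by mitochondrial DNA. The accessory subunits surround the core and serve assembly and stability. Absorptive colonocytes rely on mitochondrial oxidation of fatty acids made by gut bacteria.

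*Tfeb* itself had 0.901 FPKM in control and 0.185 in ΔIEC animals on Day 0, and in ΔIEC animals it was listed at 0 on Days 4 and 11. All 10 markers of colonic epithelium were above 1 FPKM in every group, with a median of 262 FPKM in control and 229.9 in ΔIEC animals on Day 0, 304 and 766 on Day 4, and 311 and 791 on Day 11. On Day 4, *Krt20*, *Slc26a3*, *Vil1* and *Cdh1* were 6.70- to 9.19-fold higher in ΔIEC animals and 0 of the 10 were at least 2-fold lower, so that these 4 moved in the direction opposite to most subunits, and their part in the difference was not tested. The 10 immune markers summed to 1.38 to 7.91 FPKM and the 8 stromal and endothelial markers to 2.37 to 5.09. *Cd68*, *S100a9* and *Col1a2* were at 0 in all groups. Of 6 markers of small-intestinal enterocytes and Paneth cells, 4 were above 1 FPKM in control animals. They summed to 58.0 FPKM on Day 0, 1934 on Day 4 and 1789 on Day 11, against 2.19, 11.8 and 11.3 in ΔIEC animals, with *Apoa4* at 0 in all groups. In control animals nearly all of it on Days 4 and 11 was from the α-defensins *Defa24*, with 1610 FPKM against 3.18 in ΔIEC animals on Day 4, and *Defa17*, with 297 against 3.61. *Fabp6*, of ileal enterocytes, had 18.8 and 1.74 on Day 0, 24.0 and 2.65 on Day 4, and 22.9 and 2.65 on Day 11, while *Lyz1*, of Paneth cells, had 3.07 and 2.39 on Day 4. The sum moved with the complex I subunits, and its part in their difference was not tested. In bulk cells, a smaller share of a cell type and less RNA per cell cannot be told apart.

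The values of Days 4 and 11 were nearly the same. From Day 4 to Day 11, the ratio of the FPKM of a complex I subunit was between 0.800 and 1.25 in control and between 0.766 and 1.36 in ΔIEC animals. From Day 0 to Day 4 it reached 4.26 and 2.68. No subunit had an identical value on Days 4 and 11, but 14.3% of all genes above 0 on both days did in control and 10.2% in ΔIEC animals, against 0 genes between Days 0 and 4. For this reason Day 11 is given beside Day 4 and not as a second, independent measurement. The tables of different days were also normalized separately.

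TFEB binds the E-box CACGTG, a palindrome, and most strongly its extended CLEAR form TCACGTGA, which contains it. RefSeq promoter windows on GRCm38.p6, from 250 bases before to 50 after a start site, matched 32 of the 36 subunits. The E-box occurred in the windows of 2 subunits, 6.25% of those matched, and in 7.15% of the 32851 windows of all genes. These are shown because the levels of the 2 genes differed between genotypes in opposite directions. Each sequence runs 5′ to 3′ on the strand of its gene, with the E-box in capitals.
Ndufa7, chr17:33824488-33824517, plus strand: gcggagaggagtCACGTGagcaggggatgc
Ndufv1, chr19:4012907-4012936, minus strand: agcagagggcgaCACGTGagcctggtttac
The first E-box begins 72 bases before the RefSeq start site of *Ndufa7*, has the CLEAR form and lies in the 5′ untranslated exon of *Rps28*, a ribosomal protein gene on the opposite strand. The second begins 169 bases before the RefSeq start site of *Ndufv1*, which lies inside the GENCODE gene whose coordinates are given with its values, and is in no annotated exon. On Day 4, *Ndufa7* had 768 FPKM in control and 123 in ΔIEC animals, and *Ndufv1* had 79.0 and 139. The YY1 motif AAGATGGCG, on either strand, was in the windows of 5 subunits (*Ndufa9*, *Ndufc1*, *Ndufs4*, *Ndufs6* and *Ndufs7*), 15.6% against 1.40% of all windows. The ETS motif CCGGAAG was found for 4 subunits (12.5% against 8.86%), the ERR motif AAGGTCA for 3 (9.38% against 4.72%) and the NRF1 motif for 1 (3.12% against 0.97%). A match describes these letters and is not a binding site.

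Most nuclear-encoded subunits were lower in ΔIEC than in control animals, and more so after DSS. All 36 had at least 1 FPKM in either genotype on every day, the filter set for a comparison. On Day 0, 26 subunits were at least 2-fold lower on the scale of log2(FPKM + 1), 72.2% of the members, against 16.1% of the 9993 genes that passed the filter. On Day 4 there were 28 (77.8%, against 26.1% of 9371 genes) and on Day 11 there were 29 (80.6%, against 25.7% of 9365). At least 4-fold lower were 3 subunits on Day 0 (8.33%, against 3.35% of all genes), 24 on Day 4 (66.7%, against 10.3%) and 25 on Day 11 (69.4%, against 10.2%). At least 2-fold higher was 1 subunit on Day 0 (2.78%, against 13.5% of all genes). On Days 4 and 11 there were 2 (5.56%, against 25.6% and 26.1%). The median log2 fold change of ΔIEC over control animals on Days 0, 4 and 11 was -1.25, -2.44 and -2.37, where that of all genes was 0.06, 0.06 and 0.08. Of the 36 subunits, 29 had a lower log2 fold change on Day 4 than on Day 0. No share of all genes was counted for this, and fewer subunits did so after the division by summed FPKM described next. The summed FPKM of all genes was 1.79 times as high in control as in ΔIEC animals on Day 4 and 1.78 times on Day 11. Dividing each group by that sum moved the median of all genes by 0.70 and 0.69 on the log2 scale, and the median of the subunits to -1.61 on Day 4 and -1.54 on Day 11. On Day 4, 27 subunits were then at least 2-fold lower, against 15.2% of all genes, but only 7 were at least 4-fold lower, against 4.79%, and 6 on Day 11, against 4.76%. At least 2-fold higher were then 5 on both days, against 42.1% and 42.5% of all genes. *Ndufs3* and *Ndufv2* changed direction on Day 4.

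**Figure D1:**
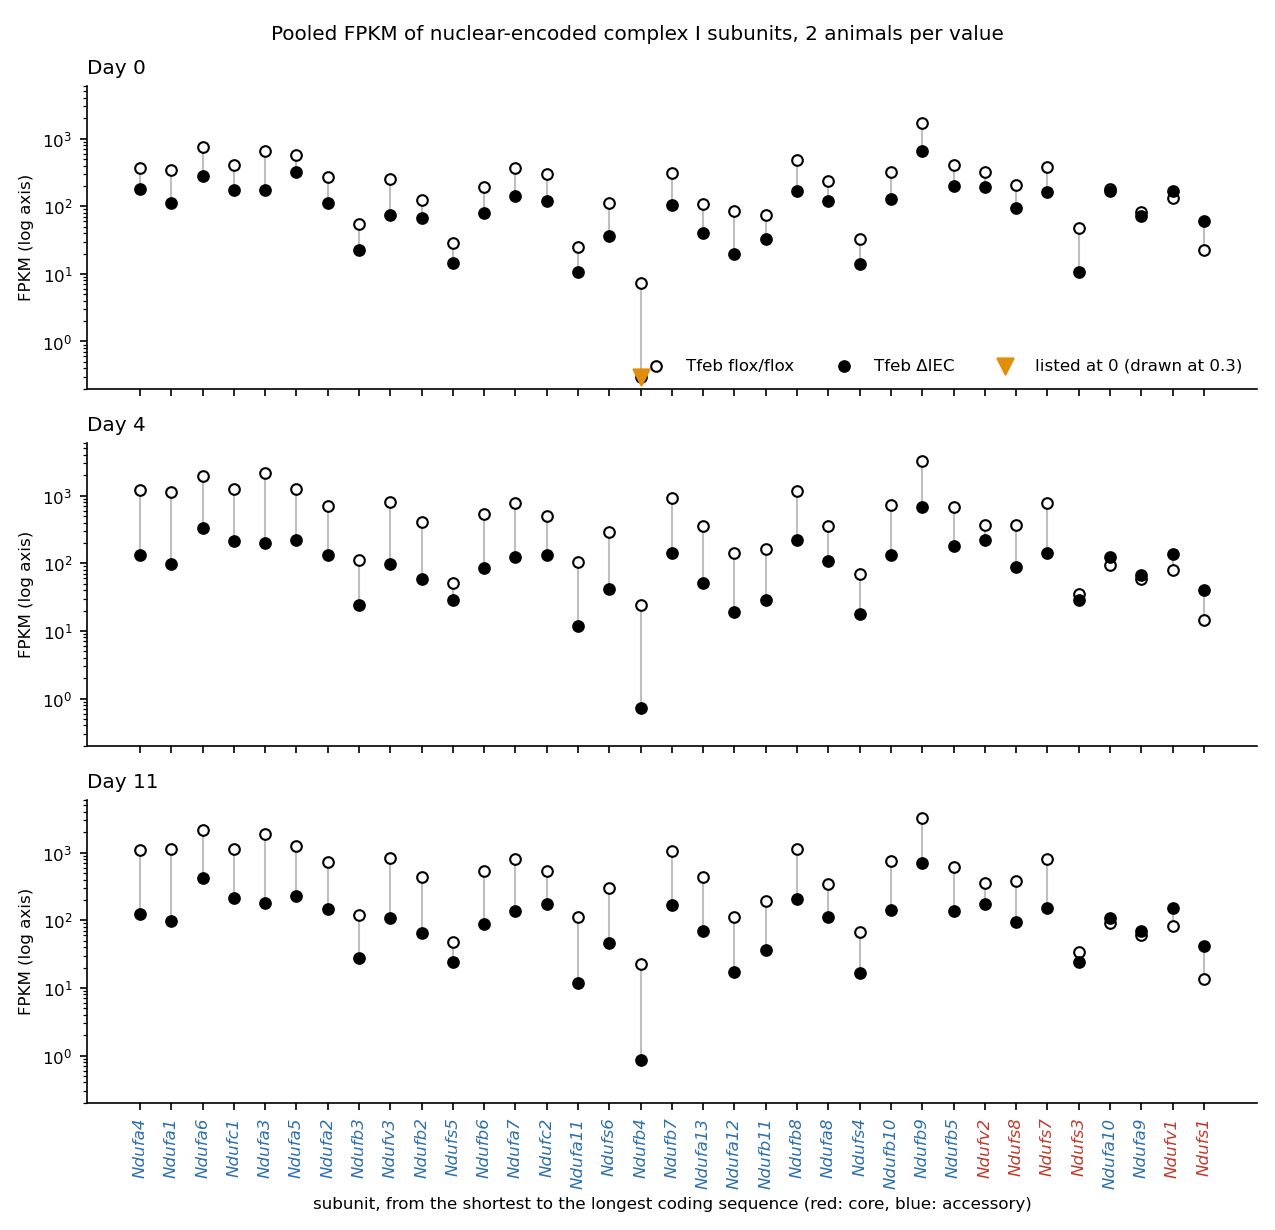
FPKM of 35 of the 36 subunits (log axis) in *Tfeb* flox/flox (open circles) and *Tfeb* ΔIEC animals (filled circles) on Days 0, 4 and 11, 1 pooled value of 2 animals per point and no error. Subunits run from the shortest to the longest coding sequence, with core names in red and accessory names in blue, and a triangle drawn at 0.3 stands for a value listed at 0. On Day 4 the open circle lies above the filled one for 31 subunits, and the 4 at the right end have the opposite order.

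The core subunits differed between genotypes in both directions. Of the 7, 4 were lower in ΔIEC animals on each day, against 47.3%, 48.7% and 48.3% of all genes, and 2 were on Day 4 when each group was divided by its summed FPKM. The core subunits of the NADH module are *Ndufv1*, *Ndufv2* and *Ndufs1*. *Ndufv1* (chr19:4007384-4012806), which holds the NADH site and the flavin, had 131 FPKM in control and 166 in ΔIEC animals on Day 0. It had 79.0 and 139 on Day 4, and 82.1 and 152 on Day 11. The ΔIEC value was thus the higher one on all days, by 1.27-, 1.76- and 1.85-fold. *Ndufs1* (chr1:63143596-63176833), the largest subunit of the complex and a carrier of several iron-sulfur clusters, had 22.7 and 59.8 FPKM on Day 0, 14.3 and 40.7 on Day 4 and 13.4 and 42.2 on Day 11. It was the only subunit at least 2-fold higher in ΔIEC animals on every day, with log2 fold changes of 1.36, 1.45 and 1.59. *Ndufv2* (chr17:66078638-66101559), an iron-sulfur protein beside the flavin, had 318 and 194 FPKM on Day 0, 367 and 219.5 on Day 4 and 352 and 174 on Day 11. Its direction was opposite to that of its partners in the module, at 1.64-, 1.67- and 2.02-fold lower in ΔIEC animals, but on the sum-divided scale its log2 fold change on Day 4 was 0.10.

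In the ubiquinone module, *Ndufs7* (chr10:80249121-80256794) carries the last iron-sulfur cluster of the chain. It had 377 FPKM in control and 162 in ΔIEC animals on Day 0, 786 and 141 on Day 4, and 808 and 151 on Day 11. It was therefore 5.58-fold lower in ΔIEC animals on Day 4, with control values that were higher after DSS and ΔIEC values close to that of Day 0. *Ndufs8* (chr19:3908863-3912774), which carries the iron-sulfur clusters before that of *Ndufs7*, had 206 and 93.2 FPKM on Day 0, 374 and 88.3 on Day 4, and 386 and 94.3 on Day 11, close to *Ndufs7* in fold. *Ndufs3* (chr2:90894634-90904827), a scaffold of the module without a cluster, was the one core subunit whose difference was larger on Day 0, at 47.2 and 10.6 FPKM, than on Day 4, at 35.7 and 28.5, or Day 11, at 34.2 and 23.8. Only 82.1% of the 50-base sequences of *Ndufs3* occur in no other gene, and *Gm12251* holds the largest number of the others, so its reads could be split with a similar sequence.

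All 29 accessory subunits were lower in ΔIEC animals on Day 0, and 27 were on Days 4 and 11. At least 2-fold lower were 23 on Day 0 and 26 on each later day, against 16.1%, 26.1% and 25.7% of all genes. Their median log2 fold change was -1.29, -2.54 and -2.42 on Days 0, 4 and 11, against -0.71, -0.31 and -0.51 for the core subunits, whose median turned to 0.50 on Day 4 and 0.30 on Day 11 when each group was divided by its summed FPKM. Core minus accessory, the medians differed by 0.58, 2.23 and 1.92. After subtraction of the running median of all protein-coding genes over coding length, these differences were 0.15, 1.08 and 0.93, and with that of genes with a mean of at least 50 FPKM they were 0.12, 0.46 and 0.46. The 26 accessory subunits that were at least 2-fold lower on Day 4 had log2 fold changes between -3.84 and -1.70. Of these, 15 are not described further, apart from the promoter of *Ndufa7*, and had 69.9 to 1241 FPKM in control and 18.1 to 221 in ΔIEC animals on that day.

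In the matrix arm, *Ndufv3* (chr17:31520115-31531331), a small subunit of the NADH module, had 253 FPKM in control and 73.2 in ΔIEC animals on Day 0, 798 and 97.7 on Day 4, and 824 and 107 on Day 11. *Ndufa12* (chr10:94198720-94221443), at the junction of the NADH and ubiquinone modules, had 85.0 and 19.5, 140.0 and 18.9, and 112 and 17.0 FPKM on the same days. These 2 were 8.17- and 7.39-fold lower in ΔIEC animals on Day 4, but only 82.3% of the 50-base sequences of *Ndufa12* occur in no other gene. *Ndufa6* (chr15:82350140-82354322), a member of the LYR protein family that docks an acyl carrier protein, was among the most abundant subunits, with 747 and 280.2 FPKM on Day 0, 1962 and 329 on Day 4, and 2190 and 419 on Day 11. *Ndufa5* (chr6:24518666-24528013), of the ubiquinone module, had 579 and 326, 1245 and 220.1, and 1239 and 229 FPKM. Both were over 5-fold lower in ΔIEC animals on Day 4, at 5.96- and 5.65-fold. *Ndufa9* (chr6:126821721-126849136), a nucleotide-binding protein near the ubiquinone site, stood apart with 83.1 and 71.3 FPKM on Day 0, 58.2 and 66.8 on Day 4, and 59.7 and 69.9 on Day 11. Its log2 fold changes were -0.22, 0.19 and 0.22, but -0.22, 1.02 and 1.04 when each group was divided by its summed FPKM.

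In the membrane arm, *Ndufb4* (chr16:37647170-37654453), of the distal part, had the lowest levels of all subunits in ΔIEC animals. It had 7.40 FPKM in control animals and was listed at 0 in ΔIEC animals on Day 0, and had 23.8 and 0.728 on Day 4 and 22.3 and 0.853 on Day 11. Its log2 fold change of -3.84 on Day 4 was the lowest among the subunits, but only 81.7% of its 50-base sequences occur in no other gene, *Ndufb4c* holding the largest number of the others. *Ndufa1* (chrX:37187588-37191163), a small membrane-spanning protein at the joint of both arms, had 345 FPKM in control and 111 in ΔIEC animals on Day 0, 1136 and 98.3 on Day 4, and 1129 and 98.2 on Day 11. *Ndufa3* (chr7:3617373-3620327), another small membrane-spanning protein of that region, had 646 and 172, 2174 and 196, and 1863 and 178 FPKM. These differences of 11.6- and 11.1-fold on Day 4 were made up of higher control values than on Day 0 and ΔIEC values that were close to those of Day 0. *Ndufa11* (chr17:56717767-56722141), which bridges segments of the membrane arm, had 24.9 and 10.5 FPKM on Day 0, 106 and 11.7 on Day 4, and 113 and 12.0 on Day 11. *Ndufb2* (chr6:39592574-39603382), of the distal part, had 122 and 67.5, 414 and 59.1, and 437 and 64.5 FPKM. Both followed the same course at lower levels.

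*Ndufb9* (chr15:58933756-58939488), a LYR protein of the distal membrane arm, was the most abundant subunit in all 6 groups. It had 1712 FPKM in control and 648 in ΔIEC animals on Day 0, 3299 and 676 on Day 4, and 3210 and 699 on Day 11. Of its 50-base sequences, 84.4% occur in no other gene, and *Gm49356* overlaps it on the same strand. *Ndufa10* (chr1:92439010-92473860), a protein of the nucleoside kinase family on the matrix face of the membrane arm, had 179 and 165 on Day 0, 95.3 and 122 on Day 4, and 90.5 and 109.8 on Day 11. Like *Ndufa9*, it was slightly lower in ΔIEC animals on Day 0 and 1.28-fold higher on Day 4, and on the sum-divided scale its log2 fold change on that day was 1.19. *Ndufs5* (chr4:123712710-123718202), on the intermembrane face, was the only short accessory subunit under 2-fold lower on Day 4, at 51.6 and 28.7 FPKM, after 28.1 and 14.3 on Day 0, and with 48.2 and 24.2 on Day 11. Of its 50-base sequences, 78.3% occur in no other gene, and *BC002163* shares the largest number of the others.

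*Ndufa4* (chr6:11900292-11907497), named as a complex I subunit but now placed in cytochrome c oxidase, had 369.7 FPKM in control and 180.1 in ΔIEC animals on Day 0, 1213 and 131 on Day 4, and 1086 and 124 on Day 11. Its differences were like those of the short accessory subunits, and without it the accessory median on Day 4 was -2.52 in place of -2.54. *Ndufab1* (chr7:122085403-122101886), the mitochondrial acyl carrier protein, is a complex I subunit whose name falls outside the rule. It had 6.96 and 4.09 FPKM on Day 0, 22.1 and 1.19 on Day 4, and 25.2 and 1.59 on Day 11. Its level was far below that of the LYR subunits *Ndufa6* and *Ndufb9* to which it binds, and it was 18.5-fold lower in ΔIEC animals on Day 4.

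The levels of core and accessory transcripts were set side by side, per transcript length as FPKM gives them. On Day 0, the median level was 206 FPKM for the core and 253 for the accessory subunits in control animals, and 162 and 111 in ΔIEC animals. On Day 4, control animals had 79.0 and 543, and ΔIEC animals 139 and 107. On Day 11 the medians were 82.1 and 535, and 151 and 109.8. The accessory median was thus 1.23 times the core median in control animals on Day 0 and 6.86 times on Day 4, while in ΔIEC animals it was 0.686 and 0.772 times. The core median of control animals on Day 4 stood at the edge of a gap, since no core subunit lay between 79.0 and 367 FPKM. In this group, the accessory subunits had a median ratio of Day 4 to Day 0 of 2.44 and the core subunits one of 0.755, 3 of the 7 being above 1 and 4 below, against 1.09 and 0.868 in ΔIEC animals, across tables that were normalized separately. Ranks were taken among the genes of at least 1 FPKM in the same group, so that they depend on that scaling only through this cut. These genes numbered 8444 and 7539 in control and 8727 and 7892 in ΔIEC animals on Days 0 and 4. The median core subunit was at the 95.1th percentile in control animals on Day 0 and at 89.0 on Day 4, and in ΔIEC animals at 95.6 and 94.4. The median accessory subunit was at 95.6 and 96.0 in control animals, and at 94.4 and 93.0 in ΔIEC animals. By rank, the accessory median was therefore high in each of these groups. Together the 36 subunits held 1.05% of the summed FPKM of all genes in control animals on Day 0, 1.57% on Day 4 and 1.56% on Day 11, and 0.474%, 0.558% and 0.573% in ΔIEC animals. With the mitochondrially encoded genes left out of the sum, the shares were 1.45%, 1.76% and 1.71% in control and 0.671%, 0.700% and 0.703% in ΔIEC animals.

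The core subunits and the accessory subunits *Ndufa9* and *Ndufa10* shared a longer coding sequence, whereas *Ndufs5*, the other exception among the accessory subunits, has 318 nt. Coding lengths are medians over the GENCODE transcripts of a gene. All 7 core subunits have at least 600 nt, with a median of 789 nt. Of the accessory subunits, 27 have under 600 nt, with a median of 348 nt over all 29, and only *Ndufa9* and *Ndufa10* have at least 1000 nt. The 5 subunits higher in ΔIEC animals on Day 4 were the 5 of at least 1000 nt, *Ndufs1* and *Ndufa9* among them, and the same 5 were higher on Day 11. Of protein-coding genes of that length with a mean of at least 50 FPKM, 77.7% and 75.8% were higher on these days. By class on Day 4, the median log2 fold change was -2.65 for the 17 subunits under 400 nt, while the 10 of 400 to under 600 nt had -2.42, the 4 of 600 to under 1000 nt had -1.40 and the 5 of at least 1000 nt had 0.81. Between coding length and log2 fold change, Spearman's rho across the 36 subunits, which share their libraries, on Days 0, 4 and 11 was 0.41, 0.71 and 0.68, as a description without a test. Among the accessory subunits alone it was 0.21, 0.52 and 0.49, and across all protein-coding genes 0.29, 0.31 and 0.31. Across protein-coding genes with a mean of at least 50 FPKM it was 0.626, 0.675 and 0.674. The accessory subunits of 400 to under 600 nt and the core subunits of 600 to under 1000 nt are the nearest in length, and no length class below 1000 nt holds both kinds, so class and length cannot be told apart there.

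The same order by length was present over the genome. On Day 4, the median was -1.43 for protein-coding genes under 400 nt, those of 400 to under 600 nt had -0.58, those of 600 to under 1000 nt had 0.02 and those of at least 1000 nt had 0.55. Among genes with a mean of the genotypes of at least 50 FPKM, a level closer to that of most subunits, the 4 medians were -2.48, -1.55, -0.30 and 1.03. The median of the subunits of the shortest class, -2.65, was thus below that of all genes of their length and close to that of the abundant ones. After the running median of all protein-coding genes over coding length was subtracted, the medians of the 36 subunits on the 3 days were -0.73, -1.40 and -1.38. With the running median of the abundant genes they were -0.30, -0.40 and -0.42, and 3, 6 and 5 subunits were at least 2-fold lower, against 3.39%, 13.5% and 13.6% of the abundant genes. On Day 4, 27 of the 29 accessory and 4 of the 7 core subunits were below the running median of all genes, as 50.1% of all protein-coding genes were, and the median distances from it were -1.42 and -0.34. Among those below were *Ndufa1*, at -3.52 against -1.42, and *Ndufs7*, at -2.47 against -0.22. The 2 accessory subunits not below it were *Ndufs5*, at -0.82 against -1.38, and *Ndufa10*, at 0.36 against 0.35. The part of length in the difference between core and accessory subunits was not tested.

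**Figure D2:**
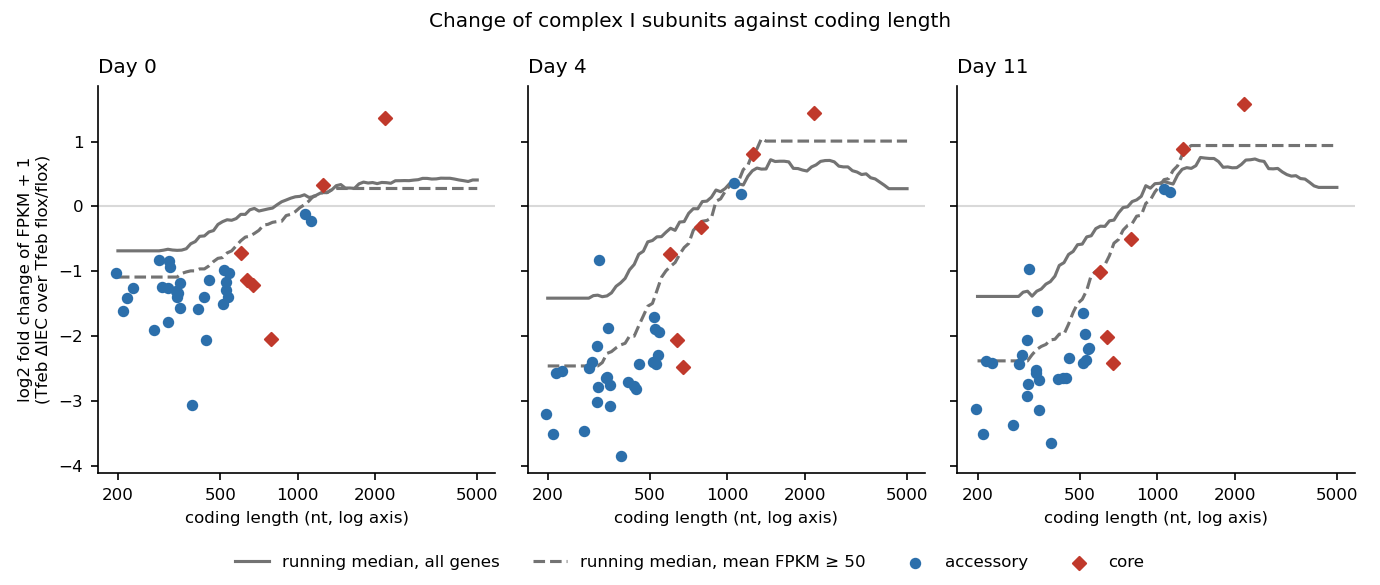
Log2 fold change of FPKM + 1, *Tfeb* ΔIEC over *Tfeb* flox/flox, against coding length (nt, log axis) for 35 of the 36 subunits, core (red diamonds) and accessory (blue circles), on Days 0, 4 and 11. Lines are running medians over protein-coding genes, of all that passed the filter (solid, 500 genes per window) and of those with a mean of at least 50 FPKM (dashed, 200 genes), held flat past the last full window; on Day 4 the subunits under 400 nt lie around a median of -2.65 and the 4 drawn of at least 1000 nt lie above 0.

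Of the 36 subunits, 16 belong to the matrix arm and 19 to the membrane arm, *Ndufa4* being in neither. On Day 4 the median log2 fold change was -2.24 in the matrix arm and -2.44 in the membrane arm, on Day 0 it was -1.19 and -1.29, and on Day 11 it was -2.16 and -2.41. Matrix minus membrane arm, the medians differed by 0.20 on Day 4 and 0.25 on Day 11, but by 0.57 and 0.64 after subtraction of the running median over coding length. The matrix arm, which holds all 7 core subunits, had the wider range. Its 9 accessory subunits alone had a median of -2.57 on Day 4, and 8 of them were at least 2-fold lower.

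The mitochondrially encoded subunits of complex I, which form the core of the membrane arm, had a median near that of all genes on Days 4 and 11. Of these 7, 2 were at least 2-fold lower in ΔIEC animals on each day (against 16.1%, 26.1% and 25.7% of all genes), and their median log2 fold change was 0.39, 0.08 and 0.06 on Days 0, 4 and 11. The lower ones were the shortest, *mt-Nd3*, with 34.8 FPKM in control and 10.7 in ΔIEC animals on Day 4, and *mt-Nd4l*, with 6.73 in control animals and listed at 0 in ΔIEC animals. *mt-Nd5*, the longest, had 555 and 1704 FPKM on Day 4. Of 14 complex I assembly factors in the tables, 13 passed the filter on Day 4, 4 of them at least 2-fold lower and 3 at least 2-fold higher, shares near the 26.1% and 25.6% of all genes, with a median log2 fold change of -0.13. *Ndufaf5*, which hydroxylates *Ndufs7* protein, had 1.99 FPKM in control and 24.1 in ΔIEC animals on Day 4. *Ndufaf2*, an assembly factor related to *Ndufa12*, had 31.9 and 7.51, and *Ndufaf1*, of the membrane-arm assembly complex, had 0.520 and 3.34.

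The other nuclear-encoded respiratory genes were close to the complex I subunits. Of 39 genes of complexes II to V, 22 were at least 2-fold lower in ΔIEC animals on Day 0, 29 on Day 4 and 29 on Day 11. Of all genes, 16.1%, 26.1% and 25.7% were. The medians of the 39 genes were -1.25, -2.32 and -2.25. The 3 with the largest change on Day 4 were *Atp5k* of the ATP synthase, with 1766 and 115 FPKM, *Uqcr11* of complex III, with 957 and 71.7, and *Atp5g2*, a source of the proton-translocating ring of the ATP synthase, with 39.7 and 2.83. By coding length on Day 4, all 19 of these genes under 400 nt were at least 2-fold lower. So were 61.7% of all protein-coding genes of that length and 87.2% of those with a mean of at least 50 FPKM. Of the 5 of at least 1000 nt, 4 were higher in ΔIEC animals, as were 77.7% of the abundant protein-coding genes of that length. The exception among the 5 was *Atp5b*, the catalytic β subunit, with 9219 FPKM in control and 2223 in ΔIEC animals. Complex IV, all of whose 11 genes are short, had 11 of 11 at least 2-fold lower on every day, and complex II had 1 of 4 on Day 4. Among 77 mitochondrial ribosomal proteins, 74 passed the filter on Day 4, with a median of -1.02. Of these, 38 were at least 2-fold lower and 7 at least 2-fold higher, against 26.1% and 25.6% of all genes. *Mrps21*, *Mrpl52* and *Mrps18c* had the largest changes, with 196, 683 and 63.6 FPKM in control and 17.7, 64.8 and 8.66 in ΔIEC animals. Of 9 regulators of respiratory genes, 0 were at least 2-fold lower and 3 at least 2-fold higher on Day 4, against 26.1% and 25.6% of all genes. These 3 were *Gabpa*, an ETS factor, with 0.280 and 4.39 FPKM, *Pprc1*, a coactivator, with 0.451 and 2.42, and *Tfam*, the mitochondrial transcription factor, with 7.13 and 16.2.

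**Figure D3:**
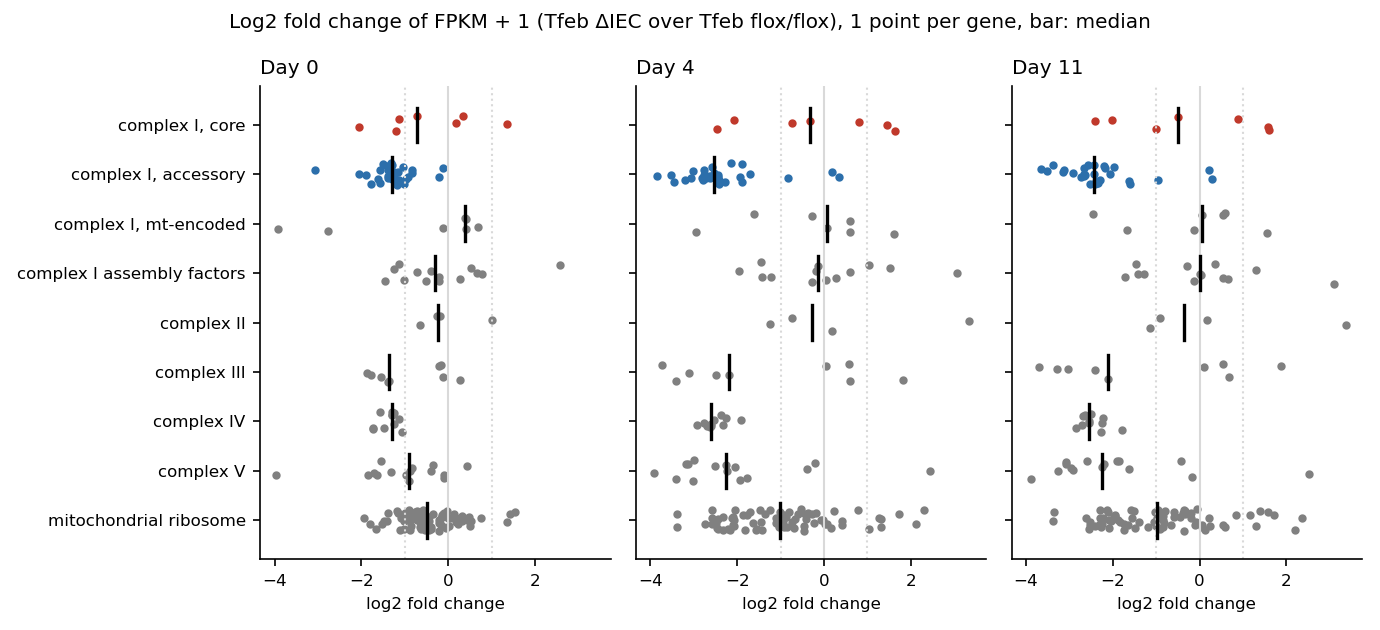
Log2 fold change of FPKM + 1, *Tfeb* ΔIEC over *Tfeb* flox/flox, on Days 0, 4 and 11 for complex I subunits by kind, assembly factors, complexes II to V and mitochondrial ribosomal proteins, with 1 point per gene, a black bar at the median and dotted lines at a 2-fold difference. On Day 4 the accessory subunits and complex IV lie furthest to the left as groups, while the core subunits spread over both sides of 0, and their median of -0.31 turns positive when each group is divided by its summed FPKM.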

How the data were processed

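Epithelial RNA of the colon had been sequenced in 6 groups of 2 animals. The authors prepared full-length cDNA by a variant of SmartSeq2, sequenced paired ends on a MiSeq machine, aligned them to mm10 using TopHat2 (2.0.14) with Bowtie, and ran Cuffdiff (2.1.1) between genotypes day by day, versions being those of the submitters' processing notes. The deposited FPKM values are 1 per gene and genotype, pooled by the authors over both animals and scaled within a day. The authors' fold changes, test statistics, p and q values in the same tables were not used. The number of reads is unknown, so no interval is given. The DSS concentration is 2.5% in the labels, and a lower one in the study's methods.

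Log2 fold changes were computed as log2((KO FPKM + 1)/(WT FPKM + 1)) for genes with at least 1 FPKM in either genotype, a scale that understates the change of low genes. No test was possible on pooled values. Members, lists, the core and arm assignments and the alternatives were chosen with earlier results of these data known. Named were the core subunits (1 counts in the summaries but is not reported here), the 8 accessory subunits with the largest decrease on Day 4, the 3 of highest mean FPKM of both genotypes on Day 0, those higher or under 2-fold lower on Day 4 or listed at 0, and the 3 genes of each other list with the largest change on Day 4. *Ndufa7* (for its promoter) and *Atp5b* fall outside this rule and were chosen after their values were seen. Coordinates, transcripts and coding lengths are from GENCODE M21, on the assembly of mm10, with 47218 of 47632 genes matched. The share of 50-base sequences in no other gene was counted over those transcripts. The libraries do not mark strand, so overlapping genes cannot be told apart. Values were computed in pandas 2.3.3 and numpy 2.4.6 and drawn in matplotlib 3.10.9 (Python 3.11.15), with rank correlations from scipy 1.17.1, and the code was tested on simulated data.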

Additional observations from a re-analysis of the deposited data

How the results depend on the processing

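No paired analysis was possible because each genotype has 1 pooled value per day, and for the same reason no fit without 1 animal was run and no replicate spread exists against which to judge a move. A value was taken as moved when it changed by more than 1.5 times. *Ndufb1-ps* was not analysed here. The medians of all 36 and of the accessory subunits stayed below 0, and the core median stayed above the accessory median, under the alternatives that were run, with 1 exception. After subtraction over transcript length, core and accessory medians differed by 1.66 on Day 4 and 1.43 on Day 11. The differences were much smaller under both subtractions over coding length.

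The exception was the core minus accessory difference on Day 0, -0.0393 once the running median over transcript length was subtracted. That subtraction gave medians of the 36 subunits of -0.66, -1.27 and -1.24 on Days 0, 4 and 11, accessory medians of -0.64, -1.42 and -1.38, core medians of 0.25 on Day 4 and 0.0520 on Day 11, a matrix minus membrane arm difference of 0.32 on Day 4, and 8 subunits at least 2-fold lower on Day 0. With coding length, chosen after seeing the data, the medians were -0.73, -1.40 and -1.38, those of the accessory subunits -0.74, -1.42 and -1.50, the core minus accessory differences 0.15, 1.08 and 0.93, the matrix minus membrane arm differences 0.0337, 0.57 and 0.64, and 11 subunits were at least 2-fold lower on Day 0. With coding length among genes of a mean of at least 50 FPKM, also chosen later, the medians were -0.30, -0.40 and -0.42, those of the accessory subunits -0.30, -0.49 and -0.51, those of the core subunits -0.18, -0.0309 and -0.0512, the core minus accessory differences 0.12, 0.46 and 0.46, the arm differences -0.0729, 0.51 and 0.43, and the counts at least 2-fold lower 3, 6 and 5. Division of each group by its FPKM sum gave medians of -1.61 and -1.54 on Days 4 and 11, accessory medians of -1.71 and -1.59 and core medians of 0.50 and 0.30. Without the members of which under 90% of the 50-base sequences are in no other gene, chosen later, the core medians were -0.27, 0.0343 and -0.0649, and the core minus accessory difference on Day 0 was 0.99. At a threshold of 4-fold, 3 subunits were lower on Day 0. A length subtraction removes by construction the median of the genes behind its curve, and the part of abundance in the larger moves with the abundant genes was not tested. Pseudocounts of 0.1 and 5, other filters, centring, and *Ndufa4* or *Ndufab1* left out or added moved no result by more than 1.5 times.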
